A study of Equus caballus with 68 samples.

Results

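SPP1, the gene of osteopontin, and the genes of its cell surface receptors CD44, ITGAV, ITGB3, ITGB5, ITGB1, ITGA4 and ITGA9 were followed in horse bone marrow mononuclear cells (BMNC) cultured in normal or inflamed joint fluid. The genes were taken by symbol from the expression table of the whole transcriptome. SPP1 was chosen by its measured values: its mean difference between inflamed and normal fluid at 48 hours was the largest of all genes tested. Of the 8 genes named, 7 were analysed among the 30371 entries of the table, which left 6 receptor genes. ITGAV, which encodes the alpha chain that pairs with the ITGB3 and ITGB5 chains, was not analysed here. All 7 reached 0.5 GeTMM in at least 7 libraries, the limit for testing. GeTMM is a read count per gene length, expressed relative to the library total and scaled between libraries, so that levels can be compared between genes as well as between samples.

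Osteopontin is a secreted, heavily phosphorylated glycoprotein of bone, activated macrophages and osteoclasts. It carries an arginine-glycine-aspartate motif bound by integrins of the alpha v family and by some beta 1 integrins, and a neighbouring site exposed by thrombin cleavage that alpha 4 beta 1 and alpha 9 beta 1 bind. CD44, better known as the hyaluronan receptor, has also been described as a receptor of osteopontin. In joints, osteopontin is found in cartilage, synovium and synovial fluid.

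The cells came from the sternal marrow of 8 Thoroughbred horses of 3 to 9 years (2 females and 6 geldings) that were free of joint disease. They were sequenced uncultured at 0 hours (n = 8), or after culture in undiluted fluid of the same horse. The middle carpal joints, which were healthy, gave the normal fluid (SF), and the radiocarpal joints, in which lipopolysaccharide had induced synovitis, gave the inflamed synovial fluid (ISF). Both fluids were freed of cells by centrifugation, and more of the same fluid, kept refrigerated, was added during culture. Each fluid had 7 libraries at 48 hours and again at 10 days, and 8 at 96 hours and at 6 days. Every library came from a single well of 1 horse. The horse Moon had no libraries at 48 hours and Flash had none at 10 days. The 0 hour cells were in no fluid, so a change from 0 to 48 hours holds the effect of culture itself. In these mixed cells, fewer cells of a type and less RNA per cell cannot be told apart.

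Reads on genes numbered 15.7 to 36.0 M per library, with a median of 22.3 M. The SF library of Moon at 6 days stood apart, with a GeTMM total of 2.32 M against 0.818 to 1.46 M in all others. Horse-specific expression over 200 genes placed 66 of 68 libraries closest to their labelled horse. The exceptions were the ISF libraries labelled Dealings and Dreamer at 96 hours, each of which lay closest to the other horse. As both belong to the same group, group values are the same either way, whereas counts within horses at 96 hours are not. Fits with a term for horse and fits that leave out Dealings or Dreamer also use these labels.

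SPP1 (ENSECAG00000017191) was a minor transcript of uncultured BMNC. Its lowest, median and highest levels at 0 hours were 5.91, 10.3 and 20.2 GeTMM (n = 8), from 97 to 374 reads per library. All 8 libraries were low, and none overlapped any cultured library. At 48 hours the levels were 8860, 14535 and 20341 GeTMM in ISF and 342, 1441 and 3565 GeTMM in SF (n = 7 each). Every ISF library lay above every SF library. In the ISF cultures SPP1 already ranked between place 2 and place 4 among all genes by GeTMM, whereas its rank in SF ran from place 18 to place 438.

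The 48 hour difference between the fluids chose SPP1 and is given without a test. Its mean was 3.37 on the log2(GeTMM + 1) scale, and the next gene by this measure, which carried no symbol, had 2.88. Within horses the difference ran from 1.31 in Dreamer to 5.41 in Flash, and ISF was higher in 7 of 7 horses. Compared with 0 hours, the mean log2 level at 48 hours was higher by 10.26 in ISF and by 6.89 in SF, again as a description.

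**Figure D1:**
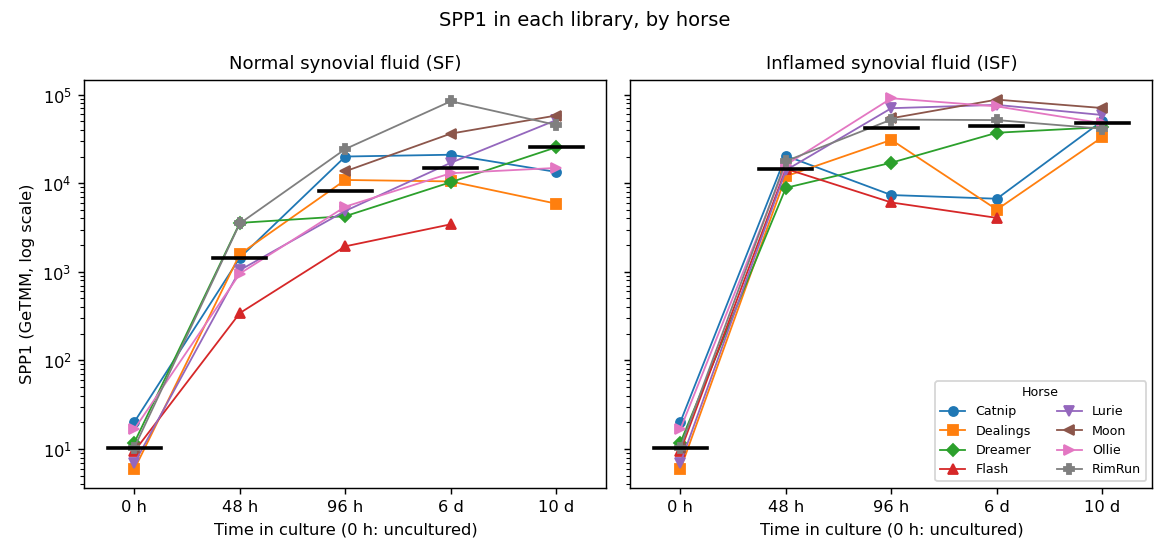
SPP1 in GeTMM on a log axis for each library, with time in culture on the horizontal axis, SF on the left and ISF on the right. Each colour is a horse and the black bars are group medians. All libraries start between 5.91 and 20.2 GeTMM, and at 48 hours the lowest ISF library (8860) lies above the highest SF library (3565).

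At 96 hours SPP1 had levels of 6058, 41495 and 90807 GeTMM in ISF and 1939, 8153 and 24293 GeTMM in SF (lowest, median and highest, n = 8 each). The groups overlapped, with 5 of 8 ISF libraries above all SF libraries and those of Flash, Catnip and Dreamer inside the SF range. SPP1 was higher in ISF (log2 difference 1.84, SE 0.59, 95% interval 0.66 to 3.02, limma FDR = 0.0327), and 10.5% of the 14570 genes tested were called at this time, with 6.16% of the genes tested higher in ISF. These libraries did not choose the gene, although they came from the same horses. Without the ISF libraries labelled Dealings and Dreamer the difference was 1.94 with FDR = 0.0569. With 1 horse left out at a time, it ranged from 1.52 to 2.31 and was no longer called without Dealings (FDR = 0.057), Dreamer (0.0915), Lurie (0.151) or Ollie (0.162).

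At 6 days and 10 days SPP1 was very high in both fluids, and the difference between them did not pass the threshold. The 6 day levels were 4059, 44316 and 87676 GeTMM in ISF and 3436, 14971 and 84081 in SF (n = 8 each). The ranges overlapped almost entirely, and only the ISF library of Moon lay above every SF library. The log2 difference was 0.58 with a 95% interval of -0.60 to 1.76 (limma FDR = 0.497), or 0.74 (FDR = 0.358) without the SF library of Moon.

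The 10 day levels were 33105, 47511 and 70479 GeTMM in ISF and 5872, 25422 and 58042 in SF (n = 7 each). The ISF cultures were all in a narrow band, while the SF cultures of Dealings, Catnip, Ollie and Dreamer lay below it. The log2 difference was 1.02 with an interval of -0.24 to 2.28 (FDR = 0.265), and ISF was higher in 6 of 7 horses.

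At its height SPP1 took up a visible share of the transcriptome. It made up 2.71% to 6.16% of the reads on genes in every ISF library at 10 days and was the most abundant gene in all 7. The highest shares of all were 7.73% in the ISF culture of Ollie at 96 hours, 7.66% in the ISF culture of Moon at 6 days and 7.56% in the SF culture of RimRun at 6 days. The spread between horses differed by condition: the highest library exceeded the lowest by 2.13-fold in ISF at 10 days but by 24.5-fold in SF at 6 days.

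In SF cultures most of the later difference in SPP1 lay between 48 and 96 hours. The mean log2 level in SF was higher by 2.52 at 96 hours than at 48 hours, a description, since the 48 hour libraries chose the gene. Later intervals did not pass the test. From 96 hours to 6 days the change was 1.05 in SF (95% interval -0.13 to 2.23, FDR = 0.365) and -0.21 in ISF (-1.39 to 0.97, FDR = 0.902). From 6 to 10 days it was 0.52 in SF (-0.70 to 1.75, FDR = 0.631) and 0.97 in ISF (-0.25 to 2.19, FDR = 0.379).

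The ISF minus SF difference of SPP1 fell from 96 hours to 6 days in 8 of 8 horses, by 1.26 ± 0.84 (SD) on the log2 scale. In the fit over groups the interaction was not called (-1.26, 95% interval -2.93 to 0.41, FDR = 0.793), nor with a term for horse (FDR = 0.547). Without Dealings and Dreamer the difference fell in 6 of 6 horses, by 1.23 ± 0.63, and SPP1 at 96 hours was higher in ISF in 5 of 6, against 7 of 8 with them. Catnip and RimRun had more SPP1 in SF than in ISF at 6 days, as had Dealings. Catnip had this order at 96 hours too, when its difference was -1.44, and at 6 days it was -1.65, so its gap widened.

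**Figure D2:**
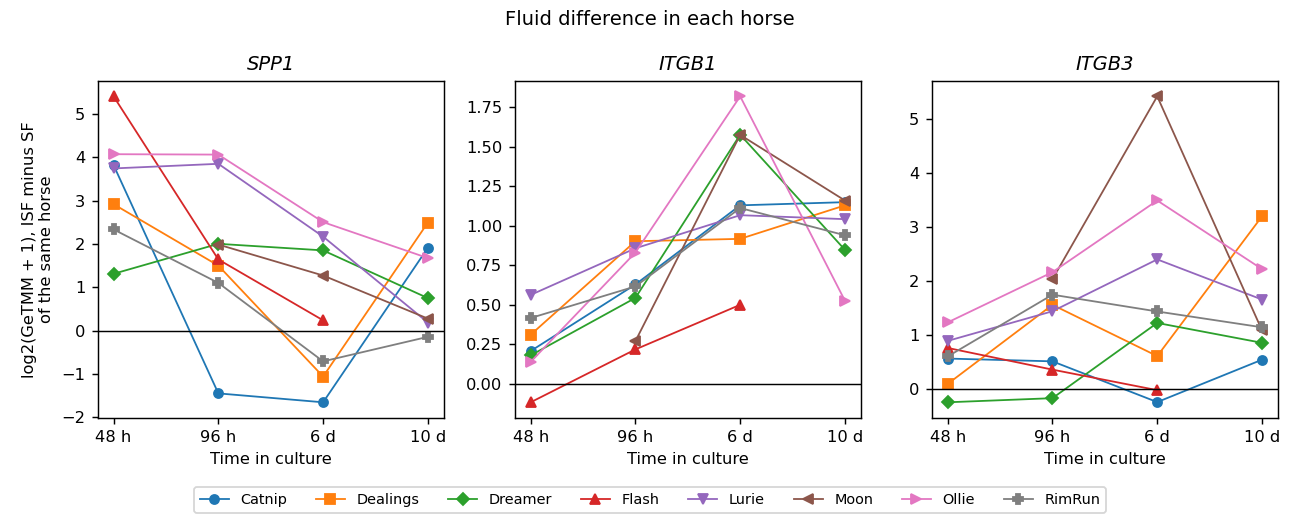
Each horse's ISF level minus its SF level in log2(GeTMM + 1) (vertical axis, a scale for each gene) against time for SPP1, ITGB1 and ITGB3, with 1 line per horse and a line at 0. For SPP1 the differences run from 1.31 to 5.41 at 48 hours and from -1.65 to 2.50 at 6 days, whereas for ITGB1 all 8 horses are above 0 at 6 days.

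At 48 hours none of the 6 receptor genes was called between ISF and SF by limma on the deposited values, by limma voom on recovered reads or with a term for horse, while 1.68% of all genes were called in the main fit. At an unadjusted p under 0.05 there was 1, CD44, where 14.0% of all genes had such a p. At 96 hours 3 receptor genes were called (background 10.5% of all genes), at 6 days 5 (background 30.2%) and at 10 days 3 (background 20.8%), all of them higher in ISF, the direction of 6.16%, 16.7% and 9.95% of all genes. The median log2 difference over the 6 was 0.36, 0.55, 0.98 and 0.58 at the 4 times, against medians over all genes of -0.02, 0.00, 0.00 and -0.02.

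**Figure D3:**
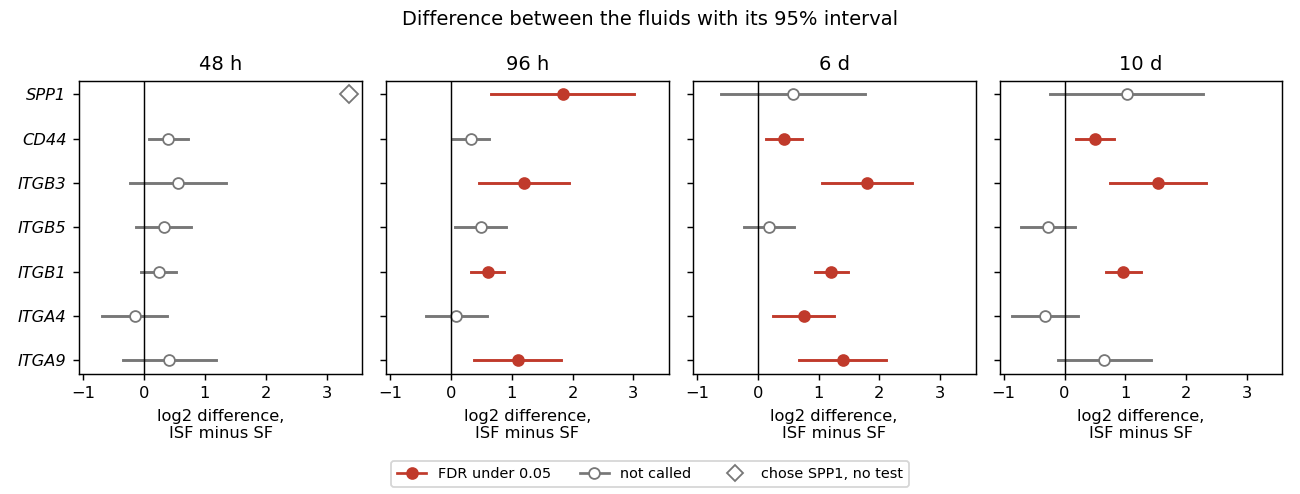
Log2 difference between ISF and SF (horizontal axis) for SPP1 and the 6 receptor genes in a panel for each time, with 95% intervals from limma; filled red points have an FDR under 0.05, open grey ones do not, and the diamond is the SPP1 value that chose the gene. No receptor point is called at 48 hours, when they run from -0.16 to 0.56, and ITGB3 and ITGB1 are called at the 3 later times.

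ITGB1 (ENSECAG00000022498) encodes the beta 1 chain shared by alpha 4 beta 1, alpha 9 beta 1 and alpha 5 beta 1. It was called between the fluids at 96 hours, 6 days and 10 days. At 0 hours its levels were 48.1, 58.0 and 65.0 GeTMM (lowest, median and highest, n = 8), and at 48 hours 89.8, 96.6 and 133 in ISF and 72.2, 90.0 and 97.6 in SF. At 6 days they were 273, 372 and 690 GeTMM in ISF and 90.9, 181 and 212 in SF. At 10 days they were 446, 507 and 534 in ISF and 208, 236 and 371 in SF. The fluids overlapped at 48 hours, but at 6 and 10 days every ISF library was above every SF library.

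The ITGB1 difference was 0.24 at 48 hours (95% interval -0.05 to 0.53, FDR = 0.471), 0.61 at 96 hours (SE 0.14, FDR = 0.00137), 1.21 at 6 days (SE 0.14, FDR = 3.04e-10) and 0.97 at 10 days (SE 0.15, FDR = 1.06e-06). ISF was higher in 8 of 8 horses at 96 hours (6 of 6 without Dealings and Dreamer) and 6 days and in 7 of 7 at 10 days. Without Moon's SF library at 6 days the 6 day difference was 1.09 (FDR = 6.73e-10), and without the ISF libraries labelled Dealings and Dreamer the 96 hour one was 0.53 (FDR = 0.0152). When libraries were rescaled to the same total, the 96 hour difference was 0.53 with FDR = 0.0582.

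The difference of ITGB1 grew between 48 hours and 10 days. The interaction was 0.73 (SE 0.21, 95% interval 0.32 to 1.14, FDR = 0.0344), and ITGB1 was the only receptor gene of 6 whose fluid difference changed by this test, with a background of 2.99% of all genes for this interval (1.59% in the direction of ITGB1). No receptor gene was called for the change from 48 to 96 hours, 96 hours to 6 days or 6 to 10 days, where backgrounds were 0.0206%, 0% and 0.226%. At an unadjusted p under 0.05 there were 0, 1 and 1, against 5.53%, 6.05% and 13.7% of all genes. The ITGB1 call was lost when libraries were rescaled to the same total (0.51, FDR = 0.329) and without Catnip (FDR = 0.132), Dealings (0.0874), Dreamer (0.104), Flash (0.0837), Lurie (0.0711) or RimRun (0.0551). With a term for horse, the replicate block, ITGB1 had FDR = 0.00758 and ITGA4 was called from 6 to 10 days as well (-1.07, FDR = 0.0494). Without Moon's SF library at 6 days and with no term for horse, the ITGA4 value was -0.72 (FDR = 0.218), against -1.07 (FDR = 0.167) with it.

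ITGB3 (ENSECAG00000017625) encodes the beta 3 chain, which pairs with alpha v in the vitronectin receptor of osteoclasts and with alpha IIb on platelets. It was low in uncultured cells and at 48 hours, and was highest at 10 days in both fluids. Its levels were 1.93, 2.92 and 3.67 GeTMM at 0 hours, and at 96 hours 2.94, 9.30 and 12.5 in ISF and 1.67, 2.63 and 4.19 in SF. At 10 days they were 36.7, 67.7 and 180 GeTMM in ISF and 8.55, 27.3 and 44.7 in SF. The fluids overlapped at each time, with 6 of 7 ISF libraries above all SF libraries at 10 days.

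ITGB3 was higher in ISF at 96 hours by 1.21 (SE 0.37, FDR = 0.0247), at 6 days by 1.79 (SE 0.37, FDR = 0.000136) and at 10 days by 1.53 (SE 0.40, FDR = 0.00322). Moon's SF library at 6 days listed ITGB3 at 0, where 3 reads would have given 0.0972 GeTMM. Without it the 6 day difference was 1.42 (FDR = 0.000753). At 96 hours the difference was 1.29 (FDR = 0.0402) without the ISF libraries labelled Dealings and Dreamer, but it was not called without Dealings (1.16, FDR = 0.0693), Lurie (1.17, FDR = 0.078), Ollie (1.07, FDR = 0.0879) or RimRun (1.13, FDR = 0.0525), with a pseudocount of 0.1 (1.44, FDR = 0.0582) or with voom on recovered reads (FDR = 0.11). Within horses, ISF was higher in 7 of 8 at 96 hours (6 of 6 without Dealings and Dreamer), 6 of 8 at 6 days (5 of 7 without Moon) and 7 of 7 at 10 days.

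The platelet partner ITGA2B did not follow ITGB3. Its median was 2.69 GeTMM at 0 hours and 0.60 and 0.72 GeTMM in ISF and SF at 10 days, and at 6 days it was lower in ISF by 0.50 (limma FDR = 0.00475). The 4 megakaryocyte and platelet genes analysed (of 5 listed) summed to 480 to 1151 GeTMM at 0 hours, and to 1.24 to 9.62 in ISF and 1.64 to 75.6 in SF at 10 days. PPBP made up most of the 0 hour sum, with a median of 777 GeTMM against 828 for the sum. GP1BA was low throughout, with medians of 0.28 GeTMM at 0 hours and 0.32 in ISF and 0.23 in SF at 10 days.

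ITGB5 (ENSECAG00000007589), the beta 5 chain of another alpha v integrin, rose with time in culture and showed no called difference between the fluids. Its levels were 8.28, 14.0 and 19.4 GeTMM at 0 hours. At 10 days they reached 146, 191 and 206 in ISF and 185, 226 and 288 in SF, and the 2 ranges overlapped. The difference between the fluids was 0.32 (95% interval -0.13 to 0.77, FDR = 0.557) at 48 hours, 0.49 (0.07 to 0.91, FDR = 0.125) at 96 hours, 0.19 (-0.23 to 0.60, FDR = 0.543) at 6 days and -0.28 (-0.72 to 0.17, FDR = 0.423) at 10 days. Without the horse Moon, ITGB5 was called at 96 hours (0.55, FDR = 0.0395). Within horses, ISF was higher in 7 of 8 at 96 hours (5 of 6 without Dealings and Dreamer) and 7 of 8 at 6 days. It was lower in 6 of 7 at 10 days. Without Moon, whose SF library was the highest at 6 days, ISF was higher at 6 days in 7 of 7 horses, by 0.40 ± 0.24 (SD). In every cultured library with ITGB3 above 0, ITGB5 exceeded ITGB3, by a median of 15.6-fold in ISF and 30.9-fold in SF at 96 hours and of 2.26-fold and 7.72-fold at 10 days.

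CD44 (ENSECAG00000010267) was the most abundant receptor gene of uncultured BMNC. Its levels were 234, 255 and 371 GeTMM at 0 hours, and 297, 423 and 543 in ISF and 200, 290 and 363 in SF at 10 days. The fluids overlapped at all times, although ISF was higher in 8 of 8 horses at 96 hours (6 of 6 without Dealings and Dreamer) and 7 of 7 at 10 days. The difference was 0.40 at 48 hours (95% interval 0.08 to 0.72, FDR = 0.201), 0.33 at 96 hours (0.03 to 0.62, FDR = 0.151), 0.43 at 6 days (0.13 to 0.72, FDR = 0.0226) and 0.51 at 10 days (0.19 to 0.82, FDR = 0.0161). Without Moon's SF library, the highest of its group at 560 GeTMM, the 6 day difference was 0.57 (FDR = 0.000712). The 6 day call was lost without Catnip (0.37, FDR = 0.0772), Dreamer (0.38, FDR = 0.0884), Flash (0.37, FDR = 0.0776) or Lurie (0.38, FDR = 0.068), with scaling by median ratios (FDR = 0.0579) and in a fit of the 2 groups alone (FDR = 0.152). The 10 day call was lost without Catnip (0.40, FDR = 0.102) or Dreamer (0.46, FDR = 0.0756), and when libraries were rescaled to the same total (0.29, FDR = 0.124).

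ITGA4 (ENSECAG00000010500), the alpha 4 chain, also binds VCAM1 and fibronectin on leukocytes, and it was the receptor gene that fell on culture. Its levels were 28.1, 33.2 and 56.8 GeTMM at 0 hours, and 7.66, 20.2 and 26.9 in ISF and 12.8, 20.3 and 28.6 in SF at 48 hours. Only 1 SF library reached into the 0 hour range. The fall was 0.94 in ISF (SE 0.26, FDR = 0.0019) and 0.78 in SF (SE 0.26, FDR = 0.0112). With libraries rescaled to the same total, which moved the median of all genes by 0.18 in both fluids, these became -0.67 (FDR = 0.0618) and -0.52 (FDR = 0.164).

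Between the fluids, ITGA4 was called at 6 days alone, and that call rested on the library that stood apart. The 6 day levels were 16.0, 24.9 and 34.2 GeTMM in ISF and 1.76, 17.8 and 26.9 in SF, the lowest of which was Moon's. ISF was higher in 8 of 8 horses, by 0.76 in the fit (SE 0.25, FDR = 0.0177). Without the library the difference was 0.40 (FDR = 0.104), and it was not called with rescaling to the same total (0.71, FDR = 0.0699) or in a fit of the 2 groups alone (FDR = 0.19). At 10 days it was -0.32 (95% interval -0.86 to 0.22, FDR = 0.449), with ISF lower in 6 of 7 horses.

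ITGA9 (ENSECAG00000007848), the alpha 9 chain, was the least abundant receptor gene, with 11 to 1342 reads per library. Its levels were 0.30, 0.48 and 0.73 GeTMM at 0 hours, 0.28, 2.05 and 11.7 in ISF against 0.29, 0.54 and 0.78 in SF at 96 hours, and 0.63, 3.89 and 16.7 against 0.27, 0.90 and 1.57 at 6 days. The ISF cultures split widely: at 6 days Flash, Catnip, Dealings and Dreamer lay between 5.59 and 16.7 GeTMM, and Ollie, Moon, Lurie and RimRun between 0.63 and 2.19. The groups overlapped at both times.

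ITGA9 was higher in ISF at 6 days by 1.40 (SE 0.36, FDR = 0.00187), in 8 of 8 horses, and by 1.32 (FDR = 0.00405) without Moon's SF library. At 96 hours the difference was 1.10 (SE 0.36, FDR = 0.0355). It fell to 0.95 (FDR = 0.14) without the ISF libraries labelled Dealings and Dreamer, and was not called without Catnip (0.89, FDR = 0.112), Dealings (1.05, FDR = 0.102), Dreamer (1.08, FDR = 0.102) or Flash (0.84, FDR = 0.14). It was also lost without a filter, in a fit of the groups compared alone, with rescaling to the same total and with voom (FDR of 0.0521 to 0.124). At 10 days it was 0.65 (95% interval -0.11 to 1.42, FDR = 0.235).

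**Figure D4:**
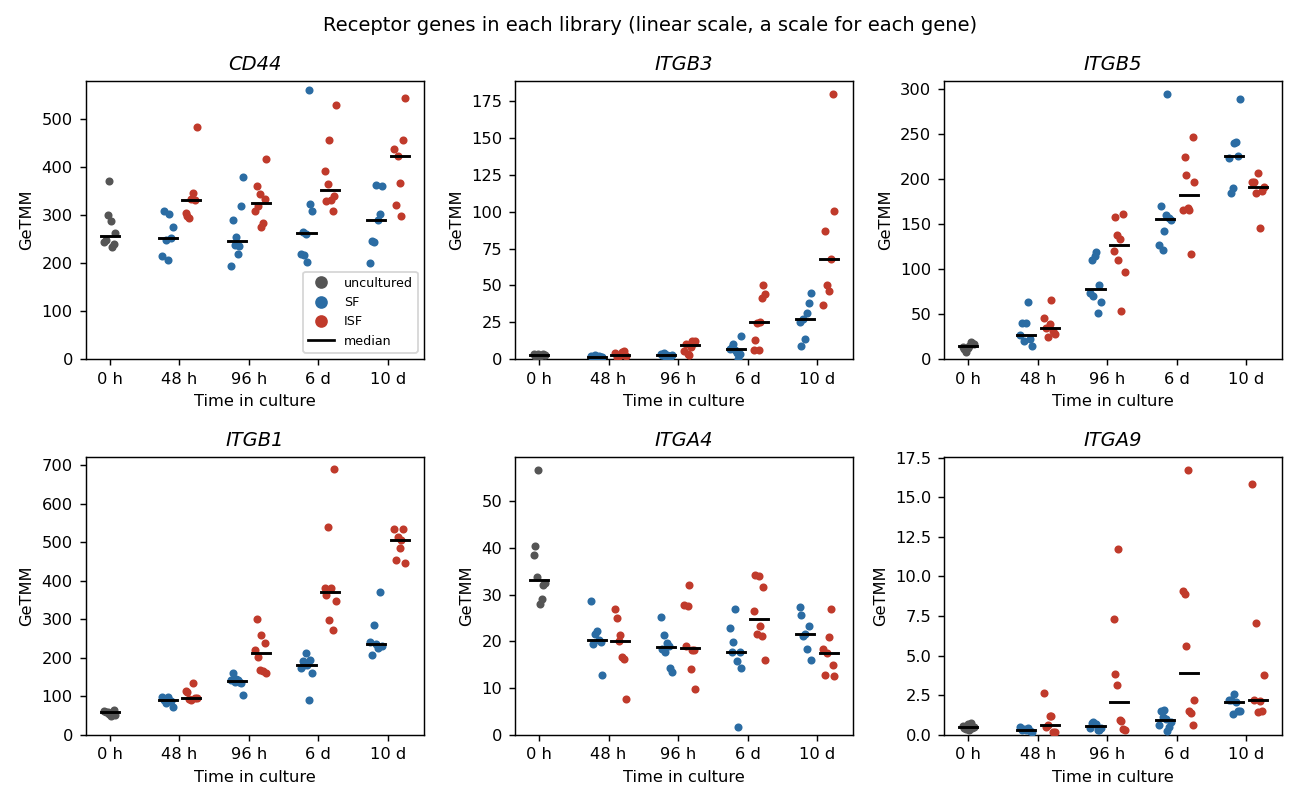
GeTMM of the 6 receptor genes in each library (linear axis from 0, a scale for each gene) by time in culture; grey points are uncultured BMNC, blue SF, red ISF, and black bars are medians. ITGB1 separates by fluid at 6 and 10 days, ITGB5 climbs in both fluids, and the high ITGA9 values come from part of the ISF cultures.

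Over time, receptor changes were called in 3 of 6 genes from 0 to 48 hours in each fluid, where 52.7% of all genes were called in ISF and 45.4% in SF. The shares of all genes that rose and fell were 25.3% and 27.4% for ISF, against 22.3% and 23.1% for SF. In both fluids these were ITGB1 and ITGB5, which rose, and ITGA4, which fell. ITGB1 rose by 0.86 in ISF and 0.62 in SF (FDR = 4.94e-07 and 0.000209), and ITGB5 by 1.34 and 1.02 (FDR = 3.99e-07 and 8.08e-05). With rescaling to the same total CD44 rose too in ISF (0.59, FDR = 0.000185, against 0.32, FDR = 0.0771).

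From 48 to 96 hours 3 receptor genes rose in ISF (background 19.0% of all genes, 8.54% rising) and 2 in SF (27.3%, 11.5% rising). ITGB5 rose by 1.64 in ISF and 1.47 in SF, ITGB1 by 1.01 and 0.64, and ITGB3 in ISF by 1.04 (FDR = 0.0461). The ITGB3 change was not called without Dealings (0.87, FDR = 0.159), Dreamer (1.09, FDR = 0.087), Lurie (1.10, FDR = 0.078), Ollie (1.07, FDR = 0.0724) or RimRun (0.90, FDR = 0.133), without the ISF libraries labelled Dealings and Dreamer (1.12, FDR = 0.0602), or in 5 other settings (FDR of 0.0503 to 0.152). With a term for horse, the replicate block, ITGA9 was called in ISF too (0.94, FDR = 0.0179, against 0.88, FDR = 0.091).

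From 96 hours to 6 days 3 rose in ISF (background 6.38%, 2.83% rising) and 1 in SF (2.05%, 0.432% rising). In ISF these were ITGB1 by 0.90, ITGB3 by 1.35 (FDR = 0.0176) and ITGB5 by 0.65 (FDR = 0.0483), and in SF it was ITGB5 by 0.95 (FDR = 0.00375). The ITGB3 call was lost without Dreamer, Lurie, Ollie or RimRun, with differences of 1.19 to 1.33 and FDR of 0.0546 to 0.0903, and in 3 other settings (FDR of 0.0652 to 0.079). That of ITGB5 in ISF was lost without any one of Catnip, Dealings, Dreamer, Flash, Ollie or RimRun, with 0.59 to 0.67 and FDR of 0.0827 to 0.134, and in 6 other settings (FDR of 0.0512 to 0.086). In a fit of the 2 groups alone ITGB5 in SF had FDR = 0.0501, and its call held in the other 16 alternatives. Moon's SF library at 6 days, the highest for ITGB5 at 294 GeTMM, enlarged this SF rise.

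From 6 to 10 days 1 rose in ISF (background 10.5%, 5.09% rising) and 2 in SF (4.78%, 3.19% rising). ITGB3 rose by 1.74 in ISF (FDR = 0.00111) and by 2.00 in SF (FDR = 0.00102), and ITGB1 rose in SF by 0.58 (FDR = 0.0106). In a fit of the 2 groups alone the SF changes had FDR = 0.158 and 0.231, and both calls held in the other 16 alternatives. Moon's SF library at 6 days was the lowest for both genes, which enlarged these SF rises. The rise in ISF minus that in SF was -0.26 for ITGB3 and -0.24 for ITGB1 (limma FDR = 0.875 and 0.623). Without that library it was 0.12 and -0.12 (FDR = 0.952 and 0.843). In all 6 horses sequenced at each time, ITGB3 was highest at 10 days in both fluids.

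The order of the receptor genes by median GeTMM changed with culture. Uncultured cells had CD44, ITGB1, ITGA4, ITGB5, ITGB3 and ITGA9 in falling order. Only ITGB1 and ITGA4, as neighbours, had overlapping ranges. At 10 days the ISF order was ITGB1, CD44, ITGB5, ITGB3, ITGA4 and ITGA9. The ranges of ITGB1 and CD44, of ITGB5 and ITGB3, and of ITGA4 and ITGA9 overlapped. In SF it was CD44, ITGB1, ITGB5, ITGB3, ITGA4 and ITGA9, with overlap between CD44 and ITGB1, ITGB1 and ITGB5, and ITGB3 and ITGA4.

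Genes that partner, bind or process these proteins were described from 6 lists, in counts of genes called by limma between ISF and SF. The reference for each list is the share over all genes tested. In either direction 1.68%, 10.5%, 30.2% and 20.8% were called at the 4 times. At the last 3 times 6.16%, 16.7% and 9.95% were higher in ISF. Of the 13 partner integrin subunits listed, 10 were tested. At 48 hours, 96 hours, 6 days and 10 days 2, 3, 3 and 2 were higher in ISF, and 0, 0, 2 and 1 lower. Those higher were ITGA5 at all 4 times, ITGB7 at the last 3 and ITGB8 at the first 3, and those lower were ITGA3 at 6 and 10 days and ITGA2B at 6 days. ITGA5, the alpha chain of the fibronectin receptor, which pairs with ITGB1, averaged 141 GeTMM in ISF and 43.7 in SF at 6 days (difference 1.69, FDR = 7.26e-12). ITGB7, which pairs with ITGA4, averaged 93.9 and 12.2 GeTMM (2.68, FDR = 6.74e-10).

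Of the 10 other ligands of the receptors, 8 were tested. VCAM1, a ligand of alpha 4 beta 1, was higher in ISF at 48 hours, 96 hours and 6 days, and averaged 321 GeTMM in ISF and 32.2 in SF at 96 hours (3.20, FDR = 3.20e-05). FN1 and EDIL3 were also higher at 6 days. THBS1 was lower at 96 hours (means of 6.54 and 36.0 GeTMM, -2.17, FDR = 0.00816), and TNC at 10 days (means of 0.186 and 8.79 GeTMM, -1.61, FDR = 0.000768). A mean of GeTMM weighs high libraries more than the log2 difference does.

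Of 15 integrin adaptors and kinases, all tested, 0, 3, 8 and 1 were higher in ISF at the 4 times and 1, 0, 0 and 1 lower. The 6 day genes included PARVB (38.0 and 9.75 GeTMM, difference 1.93, FDR = 5.44e-08) and the kinase SRC (19.3 and 9.54 GeTMM, 1.06, FDR = 8.21e-05). PXN was lower at 48 hours and FERMT2 at 10 days (means of 0.386 and 5.24 GeTMM, -1.05, FDR = 0.0464). Of 5 linkers and sheddases of CD44, 3 were higher at 6 days and none was called at another time. These were MMP14 (1.25), the membrane linker MSN (0.92) and the sheddase ADAM10 (0.58, FDR = 0.0479).

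Of 8 enzymes that act on osteopontin, 5 were tested. FAM20C, the kinase that phosphorylates osteopontin, was singled out after its values were seen. It was higher in ISF at all 4 times, with medians of 91.5 GeTMM in ISF and 31.4 in SF at 48 hours (difference 1.44, FDR = 0.0164) and 391.6 and 162 at 10 days (1.22, FDR = 0.00848). The elastase MMP12 averaged 1594 GeTMM in ISF and 125 in SF at 6 days (3.16, FDR = 0.00125), and MMP9 averaged 4509 and 699 at 10 days (2.58, FDR = 7.27e-06). ACP5, an acid phosphatase that dephosphorylates osteopontin, went the other way from 96 hours on, with 172 and 1027 GeTMM at 6 days (-2.64, FDR = 2.27e-09). Of 4 other phosphoproteins of bone and teeth from the family of osteopontin, only DMP1 was tested, and it was not called. The group medians of MEPE reached 0.196 GeTMM and those of IBSP 0.0309, while DSPP had medians of 0.

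By Pearson correlation of log2(GeTMM + 1) over the 68 libraries, the genes most like SPP1 among 9620 were AVPI1 (0.95), FABP5 (0.95), FAM89A (0.95), TREM2 (0.94) and NYAP2 (0.94). The points share horses and the step from uncultured to cultured cells. Of the receptors, ITGB5 had 0.77, ITGB1 0.73, ITGB3 0.53, CD44 0.35, ITGA9 0.28 and ITGA4 -0.52. Over the 60 cultured libraries ITGB3 had 0.66, ITGB1 0.57, ITGB5 0.53, CD44 0.43, ITGA9 0.14 and ITGA4 -0.25. Over the 30 differences between the fluids, which share horses, MGLL (0.73), LBH (0.72), FHL2 (0.72), FABP4 (0.71) and PLEKHF1 (0.70) were most like SPP1. There the receptors ran from -0.44 for ITGA9 to 0.15 for ITGB3.

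Marker genes of cell types were also compared between the fluids, and their part in the differences of SPP1 and its receptors was not tested. At 48 hours no marker gene was called, while 1.68% of all genes tested were. At 96 hours, 6 days and 10 days 10.5%, 30.2% and 20.8% of all genes tested were called in either direction, and 6.16%, 16.7% and 9.95% higher in ISF. All 6 macrophage markers were detected in every library, and their sum was 170 to 287 GeTMM at 0 hours and 5044 to 32242 in culture. Between the fluids 1 of 6 was higher in ISF (MSR1) at 96 hours, 6 days and 10 days, and 1 was lower (GPNMB) at 96 hours and 6 days. The 6 osteoclast markers, of which CTSK made up most, summed to 4866 to 19015 GeTMM in ISF and 3604 to 9557 in SF at 10 days, with OCSTAMP called higher and ACP5 lower in ISF, while CALCR was at 0 in 1 of 7 and 2 of 7 libraries.

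T cell markers (5 of 5) and B cell markers (4 of 4 analysed) were lower in ISF at 6 and at 10 days. In either direction 30.2% of all genes tested were called at 6 days and 20.8% at 10 days. The T cell sum was 8.57 to 47.3 GeTMM in ISF and 28.6 to 228 in SF at 6 days, and that of B cells 1.29 to 29.6 and 11.8 to 115. Of 6 neutrophil precursor markers 5 were lower in ISF at 6 days (sums of 2.76 to 2393 and 89.4 to 4799 GeTMM) and 3 at 10 days. The 5 fibroblast markers were lower in ISF at 10 days, with sums of 0.123 to 49.2 GeTMM in ISF and 0.406 to 4038 in SF. The medians of these sums were 0.526 and 27.6 GeTMM, and the highest SF sum was that of Lurie. Of 4 cell cycle genes analysed 2 were higher in ISF at 96 hours and 3 at 6 days, and no erythroid marker of 4 was called.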

How the data were processed

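The authors trimmed stranded paired-end reads with TrimGalore 0.4.3, mapped them to EquCab 3.0 with STAR 2.7.2a, counted them per gene (GeneCounts, Ensembl v104) and deposited GeTMM values made with edgeR, which are RPKM-like values relative to the library's sum of reads per kilobase, scaled by TMM. Which strand column was counted is not given in the sources used here. Reads were recovered from the steps between the deposited values, whole within 0.02 reads for 24065 of 24065 genes above 0. For 1 library the value of 1 read had to be corrected 2-fold. The main test used the deposited values: limma 3.58.1 (R 4.3.3; lmFit, eBayes with trend) was run on log2(GeTMM + 1) over the 14570 genes that reached 0.5 GeTMM in 7 or more libraries, as a single fit over 9 groups without a horse term. Tests are two-sided, and calls are at a Benjamini-Hochberg FDR under 0.05 over all genes tested. Fold changes of low genes are understated on this scale.

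Libraries were paired by horse, since libraries with the same name come from the same animal, and a fit with a term for horse was an alternative. From each pathway list up to 3 genes were named, those called with the largest difference between the fluids and a mean of at least 5 GeTMM; others are named only where a short count is spelled out, after their values were seen. The genes described and the lists were chosen with earlier results of these data known. The alternatives were another pseudocount (0.1), no filter, a term for horse, fits of the compared groups alone, 2 other scalings, limma voom on recovered reads, and libraries or horses left out. Means and correlations used Python 3.11.15. The intervals given come from the limma fit and rest on the spread between libraries. The floor from reads, given for ITGB3, covers counting error only.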

Additional observations from a re-analysis of the deposited data

Results flagged for a closer look

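In groups of 7 or 8 libraries, 63 combinations of a gene and a group were screened by Dixon's test for a library far from the others at the 5% level, so that chance alone marks a few groups. It picked out 10 values. Of these, 5 were from the SF library of Moon at 6 days, which was the highest for CD44 (560 GeTMM) and ITGB5 (294 GeTMM) and the lowest for ITGB1 (90.9 GeTMM), ITGA4 (1.76 GeTMM) and ITGB3 (listed at 0). This library also had the highest GeTMM total, 2.32 M. By share of reads on genes it lay close to the next library for the first 2 genes. CD44 made up 0.0660% against 0.0609% in Ollie, and ITGB5 0.0348% against 0.0322% in Dealings.

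Moon's ISF cultures were the lowest of their group for ITGB5 at 96 hours (53.8 GeTMM) and at 10 days (146 GeTMM). RimRun was the highest for CD44 in ISF at 48 hours (482 GeTMM), and the lowest for ITGA4 in ISF at 48 hours (7.66 GeTMM) and for ITGB1 in SF at 96 hours (104.3 GeTMM). The difference of ITGB1 between the fluids changed from 48 hours to 10 days by 0.73 on the log2 scale (interaction in limma, FDR = 0.0344). No library was picked out for SPP1 or ITGA9.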

How the results depend on the processing

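Of 30 single calls of receptor genes, each under 17 alternatives, 439 of 510 values kept their direction and passed the threshold, 71 kept the direction without passing it and 0 reversed. The 96 hour count of receptor genes called (3) fell to 1 with libraries rescaled to the same total and with voom, the 6 day count (5) to 3 in a fit of the 2 groups alone, and the count of interactions (1) was 2 with the replicate block and 0 with the same total. Leaving out 1 horse at a time gave 1 to 4 genes at 96 hours (1 without Dealings), 4 to 5 at 6 days and 0 to 1 interactions (0 without Catnip, Dealings, Dreamer, Flash, Lurie or RimRun). SPP1 at 96 hours (1.84) had FDR = 0.0617 without a filter, 0.0575 in a fit of the 2 groups alone and 0.0569 without the ISF libraries labelled Dealings and Dreamer (1.94), and ranged from 1.52 to 2.31 with a horse left out. With the replicate block it had FDR = 0.00395, and the block moved no other count of receptor genes called by over 1.5 times. Rescaling to the same total moved the median of all genes by -0.15 at 10 days and by 0.18 from 0 to 48 hours. For all of these the cause was not tested. ITGA9 rests on as few as 11 reads in a library.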
